A study of Mus musculus with 18 samples.

Results

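The interferon response genes are 39 named genes that cells switch on when interferon reaches them, and all 39 were found by name among the 35275 gene rows of the deposited count table. They hold 3 transcription factors, 5 RNA and DNA sensors, 3 genes of the ISG15 protein tag, 3 IFIT genes and 6 genes of the OAS family and PKR. The rest are 11 other antiviral effectors, 3 genes around the PARP9 and DTX3L complex, 2 immunity-related GTPases and 3 genes that supply peptides to MHC class I. All 39 passed edgeR's filter on low counts in each comparison described here.

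Liver RNA of mice on a mixed B6;129P2 background was sequenced from NRF2 wild type (WT) and NRF2 knockout (KO) animals. Samples were taken 2 days (2D), 4 weeks (4W) or 36 weeks (36W) after diethylnitrosamine (DEN), a liver carcinogen that every group received. Each of the 6 groups had 3 libraries. The deleted factor, NRF2, switches on genes of antioxidant defence and detoxification and is the product of Nfe2l2, and the labels give neither the knockout allele nor the age of the mice. Nor do they say that the libraries of a group came from separate animals, so p-values measure the spread between these libraries, and 3 against 3 cannot reach an exact permutation p below 0.1. No group without DEN was sampled, so a difference between genotypes that was there before DEN and a changed response to DEN cannot be told apart. The labels call the 2D samples liver tumor and the later ones liver tissue, while the extraction text of all samples speaks of tumours, and how much tumour each sample held is not given. The titles of the 2D samples also carry another letter code than the later ones, and time after DEN, the age of the mice and any batch cannot be told apart.

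Interferons bind receptors on the cell surface and activate JAK kinases. Type I and type III interferons then act through a complex that holds STAT2 and IRF9 and binds the interferon-stimulated response element (ISRE) in promoters, while interferon gamma acts mainly at the GAS element. IRF7, itself induced by this complex, amplifies type I interferon production, and many of the induced proteins detect, cut or sequester viral RNA. In liver, hepatocytes, Kupffer cells and endothelium can all express these genes, and a bulk library does not separate them: fewer cells of a type and less RNA per cell cannot be told apart.

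The promoters are shown because the ISRE is the element that the complex of STAT2 and IRF9 binds. RefSeq promoters on GRCm38.p6 were found for 30 of the 39 genes, 33 promoters in all, and the 250 bases before each start were searched on both strands. The ISRE core GAAANNGAA lay in 13 of the 33 (39.4%), against 7.13% of 32851 mouse promoters of the same length. It occurred at 2 or more positions in 7 of the 33, against 0.469% of all promoters. The GAS letters TTCNNNGAA lay in 18.2% against 7.02% of all promoters, and the core TGACNNNGC of the antioxidant response element, which NRF2 binds, in 12.1% against 10.2%. An ISRE and a GAS match overlapped in 1 promoter. The 160 bases before the start are printed 5′ to 3′ on the gene's strand for the genes with 2 or more matches whose window lay outside the deposited gene body, and for Ube2l6, which had no match. Capitals mark the ISRE core on either strand, and capitals run on where matches overlap.
Isg15 (chr4:156200819-156200978, minus strand): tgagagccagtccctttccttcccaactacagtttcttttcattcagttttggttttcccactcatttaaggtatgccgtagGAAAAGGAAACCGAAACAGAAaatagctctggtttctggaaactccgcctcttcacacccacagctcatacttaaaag
Bst2 (chr8:71537473-71537632, minus strand): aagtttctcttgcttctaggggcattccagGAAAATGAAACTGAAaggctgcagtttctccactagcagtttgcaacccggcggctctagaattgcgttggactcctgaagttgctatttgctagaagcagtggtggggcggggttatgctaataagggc
Oas1a (chr5:120907526-120907685, minus strand): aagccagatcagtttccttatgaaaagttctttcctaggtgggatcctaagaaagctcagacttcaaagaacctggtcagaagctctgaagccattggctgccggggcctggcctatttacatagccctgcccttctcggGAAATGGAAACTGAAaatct
Ifit3 (chr19:34583369-34583528, plus strand): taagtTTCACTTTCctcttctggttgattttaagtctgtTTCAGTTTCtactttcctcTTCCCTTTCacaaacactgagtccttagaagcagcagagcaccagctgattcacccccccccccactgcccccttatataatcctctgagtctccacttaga
Ube2l6 (chr2:84798668-84798827, plus strand): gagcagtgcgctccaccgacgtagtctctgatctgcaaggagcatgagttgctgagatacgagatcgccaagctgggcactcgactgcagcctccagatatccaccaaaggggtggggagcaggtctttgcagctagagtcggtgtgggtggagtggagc
The overlapping matches of Isg15, Bst2 and Oas1a each form 1 continuous run, whereas the matches of Ifit3 are spaced apart. A match describes letters and not a bound site, and no match says only that these letters are not in this window.

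A library held 15.3 to 24.2 M counts in genes (median 18.5 M), and 3 counts, taken as the floor of detection, equal 0.124 to 0.196 CPM depending on the library. CPM are counts relative to library size, here after TMM scaling, and fold changes are log2 ratios (KO over WT), each with a standard error, SE. A gene is called where the adjusted p of edgeR's quasi-likelihood test is under 0.05. Nfe2l2 itself spanned 70.2 to 76.2 CPM in WT at 2D, with KO at 43.3 to 67.8 CPM. The 4W libraries held 90 to 109 CPM (WT) or 54 to 56.3 CPM (KO), and those of 36W held 105 to 127 CPM (WT) or 37.8 to 43 CPM (KO). It was called lower at 4W and 36W and not at 2D (log2 fold -0.32, adjusted p = 0.396), and whether the counted reads lie in the deleted part is not known. Nqo1, a classical NRF2 target, was lower in every KO library than in every WT library of the same time. The third WT library of 2D differed from the rest of its group: its summed stellate cell and fibroblast markers were 4180 CPM, against 760 to 1188 CPM in the other 2D libraries, and its bile duct markers 160 CPM, against 12.9 to 19.8 CPM. Within the stellate and fibroblast list the excess was in Col1a1 (1192 CPM) and Col3a1 (2480 CPM). Reln (95 CPM) and Lrat (23.9 CPM) lay within the range of the other 2D libraries, and Dcn (389 CPM) lay just above their highest, 373 CPM. Each bile duct marker was higher in this library than in any other 2D library. Results at 2D are therefore given with and without the third WT library. Hepatocyte markers summed to 79761 to 241520 CPM.

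Per kilobase of gene length, the median level over the 18 libraries was highest for Bst2, the membrane tether tetherin, at 240 CPM per kilobase. Ube2l6, the conjugating enzyme for ISG15, followed at 51.1 and Lgals3bp, a secreted glycoprotein, at 45.8 CPM per kilobase. The lowest levels were those of Oas2 at 1.07, of the antiviral GTPase Mx1 at 0.602 and of Oas3 at 0.411 CPM per kilobase. Oas3 had 0.25 to 0.417 CPM in WT at 2D, so its folds at that time rest on few reads.

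**Figure D1:**
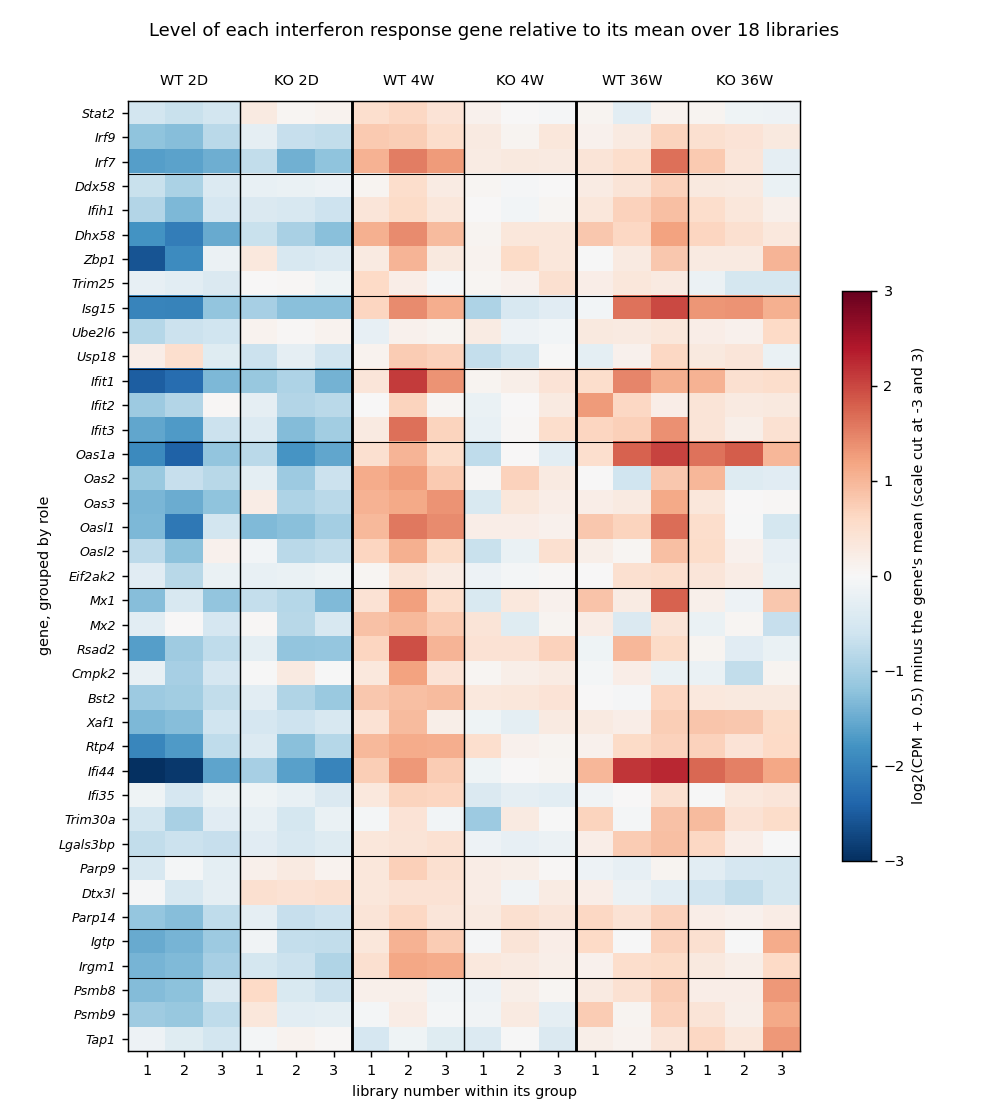
Heat map of the 39 interferon response genes (rows, grouped by role) in the 18 libraries (columns, 3 per group). Colour is log2(CPM + 0.5) minus the gene's mean over all libraries, and most genes are blue in WT at 2D and red in WT at 4W, with paler columns in KO at 4W.

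In WT liver the response genes were at their lowest 2 days after DEN and rose together by 4 weeks. From 2D to 4W, 36 of the 39 rose and 0 fell, with 19.1% of all 14877 genes called higher in the same comparison. The median log2 change of the 39 was 1.54, against -0.05 over all genes tested. The exceptions were Usp18 (log2 change 0.39), which removes ISG15 from proteins, Trim30a, a TRIM protein, and Tap1, the peptide transporter of MHC class I. The same 36 were called without the third WT library of 2D, where 17.6% of all genes were called higher. Scaling by library size alone moved the median of all genes to -0.33 and left 31 called, with a median of 1.24 for the 39. Marker levels of other cells moved over the same interval: summed neutrophil markers went from 14.8 to 15.5 CPM at 2D to 0.391 to 1.18 CPM at 4W, and stellate cell and fibroblast markers from 760 to 4180 CPM to 458 to 582 CPM. Hepatocyte markers went from 79761 to 85336 CPM to 90005 to 121036 CPM. Endothelial markers went from 204 to 303 CPM to 168 to 179 CPM. The means of Alb (60845 to 85725 CPM), Ttr, Hnf4a and Serpina1a rose, while those of Apoa1 (8985 to 7253 CPM) and Cps1 (6745 to 4547 CPM) fell. Among the stellate markers Lrat rose (15.1 to 27.6 CPM) while the others fell. Among the endothelial markers Clec4g stayed level (30.5 to 31.2 CPM) while the others fell. Of the macrophage markers, Marco went from a mean of 166 to 17.8 CPM and Clec4f from 82.2 to 157 CPM, while the sum of that list overlapped between the times. The part of these cells in the rise was not tested.

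Dhx58, which encodes the RNA sensor LGP2, stood at 2.11, 1.65 and 2.64 CPM in the WT libraries of 2D and at 18.4, 23.5 and 16.8 CPM at 4W, a rise of 3.19 on the log2 scale (SE 0.23, adjusted p = 1.6e-07). Irgm1, an immunity-related GTPase of autophagy, went from 20.2, 21.4 and 26.9 CPM to 76.4, 122 and 117 CPM (2.21, adjusted p = 6.64e-07). In both genes the lowest library of 4W lay far above the highest of 2D. Irf9, the DNA-binding subunit of the ISRE complex, rose by 1.81 (adjusted p = 1.21e-06) and Parp14, a mono-ADP-ribosyltransferase, by 1.54 (adjusted p = 1.58e-06). The largest fold was that of Ifi44 at 4.07, but its 2D libraries held as little as 0.0898 CPM, which is under the floor, so the size of that fold is uncertain.

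In KO liver 13 of the 39 rose from 2D to 4W and 0 fell, against 13.5% of all genes called higher in that comparison. The median change was 0.55, against 0.02 over all genes. Parp14 rose by 0.90 (adjusted p = 0.000354), Dhx58 by 1.30 (adjusted p = 0.000615), Bst2 by 1.10 (adjusted p = 0.000766) and Irgm1 by 0.95 (adjusted p = 0.00154). Stat2, the transactivating subunit of the ISRE complex, rose by 1.12 in WT and had a log2 change of -0.11 in KO (adjusted p = 0.553). Irf7, Irf9, Parp14, Dhx58, Bst2, Oasl1 and Irgm1 were called whichever of the 6 KO libraries was left out, Ifih1 in none of these cases, and the count ranged from 8 to 15.

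Irf7, Stat2, Irf9, Isg15 and Ifit1 show the course in every library. Irf7 stood at 10.9, 11.2 and 12.4 CPM in WT and 21.1, 12.7 and 15 CPM in KO at 2D. At 4W it stood at 73.1, 103 and 86.5 CPM in WT and 41.9, 43.8 and 42.5 CPM in KO. The genotypes did not overlap at either time, with KO above WT at 2D and below it at 4W. At 36W Irf7 had 46.2, 51.4 and 113 CPM in WT and 61, 46 and 29.1 CPM in KO, so that the groups overlapped and the third WT library stood above the rest.

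Stat2 had 55.4, 51.1 and 54.9 CPM in WT and 97, 84.8 and 87.4 CPM in KO at 2D. At 4W the order was turned, with 116, 126 and 109 CPM in WT and 89.5, 81.1 and 79.2 CPM in KO. No WT library overlapped a KO library at either time. At 36W the genotypes overlapped, at 86.4, 65 and 87.3 CPM in WT and 85.7, 74 and 72.7 CPM in KO.

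Irf9 had 14.1, 13.4 and 18.6 CPM in WT and 27.2, 20.4 and 19.8 CPM in KO at 2D, and 57.6, 55.7 and 47.7 CPM against 39.9, 35.3 and 41.8 CPM at 4W. These groups too lay apart, above WT at 2D and below it at 4W. At 36W Irf9 had 36.5, 40.2 and 52.5 CPM in WT and 46, 44.1 and 40.6 CPM in KO, and the groups overlapped. The counted region of Irf9 overlaps Rnf31 on the same strand and that of Irf7 overlaps Phrf1 on the other strand. Igtp likewise overlaps Irgm2 on the same strand, and Psmb9 and Tap1 overlap each other on opposite strands. How reads of such regions were assigned is not given in the sources used here. The labelled library kit does not mark strand, so reads of genes on opposite strands cannot be told apart where they overlap.

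Isg15, the ubiquitin-like tag itself, had 2.42, 2.4 and 4.59 CPM in WT and 5.36, 4.33 and 4.4 CPM in KO at 2D, where the third WT library fell within the KO range. At 4W it had 17.7, 30.6 and 24.4 CPM in WT and 5.61, 7.86 and 8.72 CPM in KO, with no overlap. At 36W the WT libraries spread from 10.5 over 35.1 to 45.1 CPM, on either side of the KO libraries at 28.7, 29 and 23.7 CPM.

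Ifit1, which binds foreign RNA ends, had 1.08, 1.3 and 2.97 CPM in WT and 3.54, 4.17 and 2.79 CPM in KO at 2D, where the third WT library lay within the KO range. At 4W it had 10.9, 37.4 and 21.8 CPM in WT and 8.91, 9.49 and 11.3 CPM in KO. The lowest WT library of 4W lay within the KO range, so the groups overlapped. At 36W Ifit1 overlapped as well, at 12.2, 23.9 and 18 CPM in WT and 17.8, 11.8 and 12.2 CPM in KO.

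**Figure D2:**
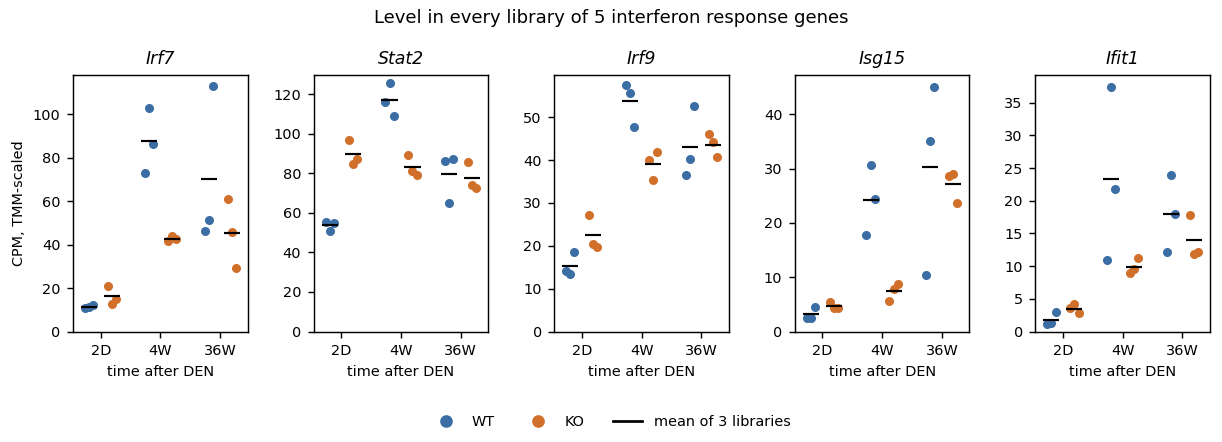
Level (CPM, TMM-scaled, axis from 0) of Irf7, Stat2, Irf9, Isg15 and Ifit1 in every library at 2D, 4W and 36W after DEN, WT in blue and KO in orange, with a bar at the mean of 3 libraries. The KO points of Stat2 lie above WT at 2D, below it at 4W and among the WT points at 36W.

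At 4W the KO livers held less interferon response RNA than WT. Of the 39 genes 15 were called lower and 0 higher, which is 38.5% of them, with 6.08% of all 13394 genes called in this comparison and 4.13% called lower. The median fold was -0.60, against 0.01 over all genes, and 38 of the 39 folds were below 0. Every KO library was below every WT library for 25 of the 39 genes (64.1%), against 14.7% of all genes. The genes were chosen with earlier results of these data known, so these counts describe the group and are no independent evidence of its direction.

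All 3 transcription factors fell. Irf7 fell by 1.04 on the log2 scale (SE 0.13, adjusted p = 0.0029), Stat2 by 0.50 (SE 0.10, adjusted p = 0.0198) and Irf9 by 0.47 (SE 0.11, adjusted p = 0.0451).

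Among the sensors Dhx58 fell from 18.4, 23.5 and 16.8 CPM in WT to 9.1, 11 and 10.8 CPM in KO (-0.94, SE 0.16, adjusted p = 0.012). Ifih1, which encodes the long RNA sensor MDA5, fell by 0.45 (adjusted p = 0.0385). Ddx58, which encodes RIG-I, had a fold of -0.30, Zbp1, a sensor of left-handed nucleic acid, one of -0.23 and Trim25, the ubiquitin ligase that activates RIG-I, one of -0.04, and none of the latter passed.

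The ISG15 system was split. Isg15 showed the largest fall among the 39 genes, 1.72 (SE 0.23, adjusted p = 0.00411), and Usp18 fell by 0.97 (adjusted p = 0.0408). Ube2l6, at 63, 82.3 and 78.9 CPM in WT and 87.7, 67 and 70.5 CPM in KO, showed no separation of the genotypes (adjusted p = 0.995). None of the IFIT genes, which bind viral RNA, was called: Ifit1 had a fold of -1.25 (SE 0.37, adjusted p = 0.0827), Ifit3 one of -0.87 and Ifit2 one of -0.26.

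In the OAS family, some of whose products make the activator of the RNA-degrading enzyme RNase L, 2 genes were called. Every KO library was below every WT library for all 6 genes counted with PKR. Oasl1, which in mouse restrains translation of Irf7, fell from 19.5, 29.9 and 26.6 CPM to 11.2, 11.2 and 10.5 CPM (-1.21, SE 0.17, adjusted p = 0.00433). Oas1a fell from 9.51, 14.2 and 10.2 CPM to 3.74, 6.73 and 5.28 CPM (-1.11, SE 0.26, adjusted p = 0.0373). Oas3 had a larger fold than either, -1.32, but missed the threshold (adjusted p = 0.0504). Oas1a and Ifit3 have near copies in the mouse genome, and how reads shared with them were counted is not given in the sources used here.

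Of the 11 other effectors 5 fell. Bst2 went from 262, 282 and 291 CPM in WT to 188, 189 and 201 CPM in KO (-0.54, SE 0.09, adjusted p = 0.0118). Lgals3bp went from 142, 148 and 155 CPM to 101, 94.6 and 99.2 CPM (-0.60, SE 0.09, adjusted p = 0.00633). Both are abundant genes in which the replicates lay close together and the genotypes far apart. Rtp4, a receptor chaperone that limits flaviviruses, went from 27.1, 29.9 and 29.4 CPM to 19.5, 14.9 and 14.5 CPM (-0.83, adjusted p = 0.00963). Ifi35, an interferon-induced leucine zipper protein, went from 14.9, 19.2 and 18.8 CPM to 8.66, 9.82 and 9.47 CPM (-0.93, adjusted p = 0.00886), and Ifi44 from 10.6, 15.9 and 10.8 CPM to 5.61, 6.13 and 6.49 CPM (-1.04, adjusted p = 0.0193). In all of these the lowest WT library stayed above the highest KO library.

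The uncalled effectors also had folds below 0: Mx1 -0.89, Mx2 -0.86, Rsad2, which encodes viperin, -0.81, Xaf1 -0.63, Cmpk2 -0.57 and Trim30a -0.29. Irgm1 fell from 76.4, 122 and 117 CPM to 67.4, 65.2 and 61.4 CPM (-0.71, SE 0.17, adjusted p = 0.0373), and the other GTPase, Igtp, had a fold of -0.57 (adjusted p = 0.104). The complex genes Parp9 and Dtx3l, which partly overlap on opposite strands, had folds of -0.39 and -0.28, and Parp14 one of -0.10.

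The genes of MHC class I peptide supply stood aside at 4W. The immunoproteasome subunits Psmb8 and Psmb9 had folds of -0.05 and -0.07 and Tap1 one of 0.04, each with overlapping groups.

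**Figure D3:**
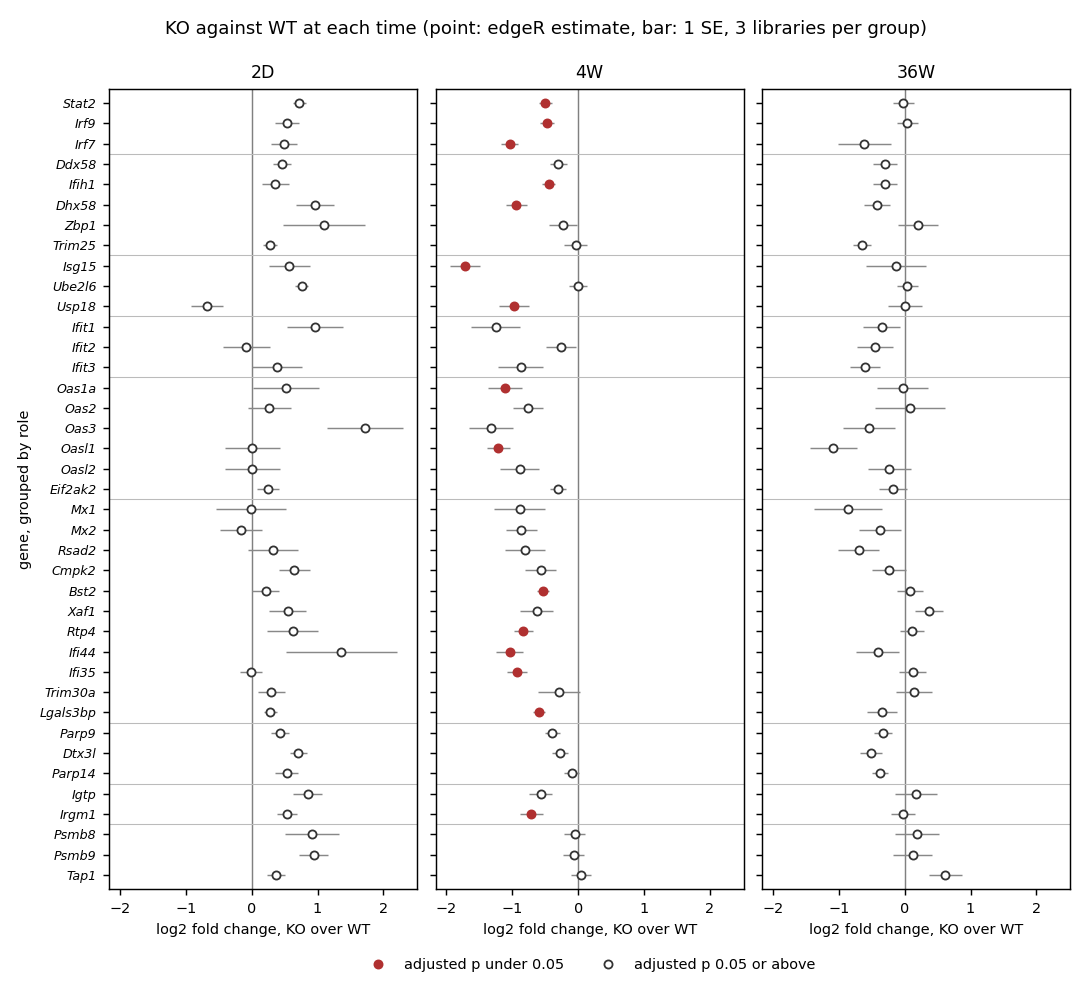
Log2 fold change of KO over WT for the 39 genes at 2D, 4W and 36W (points: edgeR estimate, bars: 1 SE, filled: adjusted p under 0.05). The points lie mostly to the right of 0 at 2D with 0 called, to the left at 4W with 15 called, and around 0 at 36W with 0 called.

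The 4W calls depended on single libraries to unequal degrees. Irf7, Isg15, Oasl1, Rtp4, Ifi35 and Lgals3bp were called whichever of the 6 libraries was left out. In edgeR's fit of all 18 libraries, however, Irf7 (adjusted p = 0.0769), Oasl1 (adjusted p = 0.0869), Rtp4 (adjusted p = 0.127) and Lgals3bp (adjusted p = 0.0612) lost the call, as did Ifi44, Irf9, Ifih1, Oas1a, Bst2 and Usp18, and Isg15, Ifi35, Stat2, Dhx58 and Irgm1 kept it. Of single libraries, leaving out the second WT library was the one that cost Dhx58 and Bst2 the call (adjusted p = 0.0524 and 0.0569). Irf9 lost it without any one of the 6, with p up to 0.154, and Stat2, Ifi44, Ifih1, Oas1a, Usp18 and Irgm1 without 3 to 5 of them. The count was 6 without the second WT library, in which 32 of the 39 genes were highest in WT, 17 without the first WT library, 9 without the second KO library and between 10 and 11 without any other.

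Markers of liver cell types differed in single genes at 4W. Of 8 Kupffer cell and macrophage markers 1 was called, Clec4f, a Kupffer cell lectin, which fell by 0.71 (adjusted p = 0.0138), while the summed markers ranged from 427 to 495 CPM among WT libraries and from 284 to 841 CPM among KO libraries, highest in the second KO library. Of 5 endothelial markers Kdr rose by 0.59, of 6 hepatocyte markers Hnf4a fell by 0.58, and of 4 neutrophil markers, 2 of them tested, S100a8 rose by 3.10 and S100a9 by 2.66, with neutrophil sums of 0.391 to 1.18 CPM (WT, Ly6g at 0 in every library) and 2.74 to 8.46 CPM (KO). No call was made among the markers tested of the other lists, which were 3 of 4 for monocytes, 4 of 8 for T and NK cells, 1 of 5 for plasmacytoid dendritic cells and all of those for B, bile duct and stellate cells. Monocyte sums, 4.43 to 6.9 CPM (WT) and 7.23 to 10.7 CPM (KO), and B cell sums, 2.51 to 4.18 CPM (WT) and 4.59 to 9.06 CPM (KO), nevertheless did not overlap. Plasmacytoid dendritic cell markers, those of the main interferon-alpha producers of blood, summed to 0.976 to 3.15 CPM (WT) and 2.49 to 4.88 CPM (KO). The part of these cells in the 15 calls was not tested.

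At 2D the direction was the opposite, without a called gene in the test of all 6 libraries. The median fold of the 39 was 0.49, against -0.04 over all genes, and 34 of the 39 folds were above 0 (32 with scaling by library size alone, which moved the median of all genes to -0.13). edgeR called 0 of the 39, with 0.165% of all 13913 genes called (0.0431% higher and 0.122% lower). At an unadjusted p under 0.05 there were 18 genes, or 46.2%, against 16.1% of all genes. DESeq2 called 5, which were Stat2, Igtp, Psmb9, Dtx3l and Ube2l6, with 707 of 21869 genes with a count called. For 17 of the 39 genes (43.6%) every KO library lay above every WT library, against 12.8% of all genes. The genotypes also lay apart at 2D in 3 marker sums: B cells at 3 to 7.37 CPM (WT) and 8.66 to 10.9 CPM (KO), hepatocytes at 79761 to 85336 CPM (WT) and 98100 to 114540 CPM (KO), and neutrophils at 14.8 to 15.5 CPM (WT) and 7.11 to 14.7 CPM (KO). Most of the hepatocyte sum was Alb, with means of 60845 CPM (WT) and 83144 CPM (KO). Ttr also had a higher mean in KO, whereas Apoa1, Serpina1a, Hnf4a and Cps1 had lower ones. Of the neutrophil markers S100a8 was lower in every KO library, while S100a9, Retnlg and Ly6g overlapped. T and NK cell sums were 3.34 to 5.52 CPM (WT) and 5.33 to 8.79 CPM (KO). The part of these cells in the 2D folds was not tested.

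Stat2 and Ube2l6 came nearest to a call, with folds of 0.72 (SE 0.10) and 0.76 (SE 0.10) and an adjusted p of 0.0571 each. Ube2l6 had 41, 47.5 and 49.4 CPM in WT and 79.5, 76.8 and 80 CPM in KO. Dtx3l, an E3 ubiquitin ligase, had 47.7, 34.8 and 40.4 CPM in WT and 68.2, 66.8 and 68.5 CPM in KO (0.71, SE 0.13, adjusted p = 0.0929). The replicates of these genes were close and the genotypes lay well apart. The peptide supply genes, level between genotypes at 4W, had folds of 0.92 (Psmb8), 0.94 (Psmb9) and 0.37 (Tap1) here. Usp18 had the only fold below -0.5, -0.68, with WT at 23.7, 29.7 and 16 CPM and KO at 13.1, 16.9 and 13.8 CPM.

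Without the third WT library of 2D, 17 of the 39 genes were called higher and 1 lower, with 6.68% of all 14147 genes called higher and 6.42% lower in that smaller comparison. That library was the highest of its group for 27 of the 39 genes, against 43.5% of all genes. The called genes were Stat2 (0.73, adjusted p = 0.00606), Irf9 (0.69), the sensors Ddx58 (0.60), Ifih1 (0.57), Dhx58 (1.13) and Zbp1 (2.23), then Isg15 (0.94), Ube2l6 (0.81, adjusted p = 0.00396), Ifit1 (1.53), Xaf1 (0.87), Rtp4 (1.11), Ifi44 (2.93), Dtx3l (0.70), Parp14 (0.69), Igtp (0.98), Irgm1 (0.67) and Psmb9 (1.05). The fold of Ifi44 rests on 2 and 8 counts in the first and second WT libraries (0.0898 and 0.4 CPM). The lower of these is under the floor, so the size of that fold is uncertain. Usp18 was the 1 called lower (-0.89, adjusted p = 0.011). Zbp1 shows what the library does to a fold: its WT levels were 1.84, 3.3 and 11.9 CPM, with KO at 16.9, 9.5 and 10.1 CPM. Its fold moved from 1.10 to 2.23. With any 1 of the other 5 libraries left out, 0 of the 39 were called. Of the OAS genes and PKR none was called in either comparison.

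**Figure D4:**
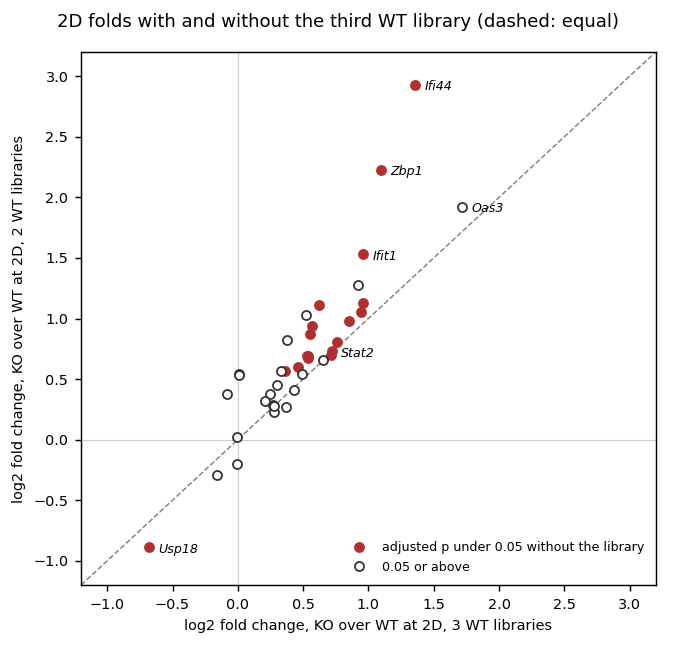
Log2 fold change of KO over WT at 2D for the 39 genes with all 3 WT libraries (x axis) and without the third (y axis), filled where the adjusted p without it is under 0.05. Most points lie on or above the dashed line of equality, Ifi44 and Zbp1 farthest from it, and Usp18 lies alone below -0.5 on both axes.

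At 36W edgeR called 0 of the 39, with 0.037% of all 13516 genes called (0.0148% lower), and 6 had an unadjusted p under 0.05, which is 15.4% against 12% of all genes. The median fold was -0.23, against 0.01 over all genes, with 13 folds above and 26 below 0 (17 above 0 with scaling by library size alone). For 6 genes (15.4%) every KO library lay below every WT library, against 10.3% of all genes, and for 0 above, against 8.24%. The 6 were Trim25, Ifit3, Oasl1, Parp9, Dtx3l and Parp14.

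Trim25 had 114, 126 and 121 CPM in WT and 88.2, 68.7 and 69 CPM in KO at 36W (-0.65, SE 0.14, adjusted p = 0.228). DESeq2 called it as its only gene of the 39, with 293 of 21034 genes with a count called. Oasl1 had 17.1, 15.5 and 31.8 CPM in WT and 14, 9.5 and 6.54 CPM in KO (-1.08, SE 0.36, adjusted p = 0.34). Parp9, Dtx3l and Parp14 had folds of -0.33, -0.51 and -0.38. These separations were present in every library but did not pass the adjustment. In the opposite direction Tap1 had a fold of 0.62 (adjusted p = 0.392), with KO at 75.6, 63.4 and 121 CPM. The third KO library, which held the 121 CPM, also had the highest T and NK cell marker sum, 37.5 CPM against 4.1 to 13.2 CPM in the other 36W libraries, and the part of these cells in it was not tested. At 36W the marker sums of plasmacytoid dendritic cells lay apart, at 1.65 to 2.99 CPM (WT) and 4.92 to 11.6 CPM (KO). So did those of endothelium, at 202 to 254 CPM (WT) and 182 to 200 CPM (KO). Runx2 of the first list had means of 1.07 CPM (WT) and 4.21 CPM (KO), while Siglech, Ccr9 and Pacsin1 overlapped. Clec4g, an endothelial marker, was higher in every KO library. No marker tested was called at 36W, and the part of these cells was not tested. Replicates spread more widely at 36W in WT than in any other group, with a median SD of 0.37 on the log2 scale against 0.20 to 0.27 elsewhere. Over all genes tested this group was the widest too, with a median SD of 0.26 against 0.16 to 0.23.

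The difference of the KO effect between times was tested with all 18 libraries. The comparisons below share samples with those above and with each other, so they are not separate evidence. Between 2D and 4W, all 39 differences were above 0, with a median of 1.01 against -0.05 over all genes. Of the 39, 7 were called, all higher at 2D than at 4W, with 1.01% of all 14877 genes called in that direction and 0.329% in the other. These were Stat2, Irf9, Dhx58, Oas3, Parp9, Dtx3l and Irgm1. With scaling by library size alone, which moved the median of all genes to -0.13, all 39 were still above 0 and 4 were called.

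Stat2 had the smallest p, with a fold of 0.72 at 2D, -0.50 at 4W and a difference of 1.23 (SE 0.17, adjusted p = 0.00238). Dhx58 had 5.2, 4.11 and 3.26 CPM in KO against 2.11, 1.65 and 2.64 CPM in WT at 2D, the reverse of its order at 4W, and a difference of 1.89 (SE 0.31, adjusted p = 0.00725). Both held whichever of the 12 libraries was left out. Oas3 had 1.97, 0.611 and 0.71 CPM in KO against 0.314, 0.25 and 0.417 CPM in WT at 2D, and 1.06, 2.17 and 1.95 CPM against 3.91, 4.14 and 4.88 CPM at 4W (difference 3.04, SE 0.65, adjusted p = 0.0307). It lost the call without 7 of the 12 libraries, Irf9 (1.01) without 10, Parp9 (0.83) and Irgm1 (1.26) without 8 and Dtx3l (1.00) without 4. The count ranged from 2, without the second or the third WT library of 4W, to 17, without the third WT library of 2D, where 3.5% of all genes were called and 2.26% in the higher direction.

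Parp9, at 31.7, 42.1 and 35.8 CPM in WT and 49.4, 53 and 47.3 CPM in KO at 2D, changed to 56.1, 72.9 and 61.6 CPM against 51.6, 49.8 and 45.5 CPM at 4W. Dtx3l at 4W had 62.3, 66.1 and 66.1 CPM in WT and 57.4, 45.3 and 57.9 CPM in KO. Irgm1 at 2D had 37.3, 34.5 and 28.5 CPM in KO, above all WT libraries, and lay below all of them at 4W. In all 3 genes the KO libraries lay above the WT libraries at 2D and below them at 4W.

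Between 2D and 36W, 7 genes were called, all with a lower KO effect at 36W, against 2.43% of all genes called in that direction and 0.612% in the other, and the median difference was -0.76 against 0.03 over all genes. They were Dtx3l (-1.26, SE 0.20, adjusted p = 0.0069), Parp14 (-0.95), Stat2 (-0.78), Dhx58 (-1.41), Trim25 (-0.97), Parp9 (-0.80) and Ube2l6 (-0.76). All 3 genes of the PARP9 and DTX3L group were among them. Parp14 had 19.2, 17.6 and 25.4 CPM in WT and 36, 26.5 and 28 CPM in KO at 2D, and 67.7, 59.1 and 70.5 CPM against 50.1, 47.8 and 50.8 CPM at 36W, so that KO passed from above to below WT. Trim25 had 84, 79.8 and 73.2 CPM in WT and 99.5, 101 and 90.5 CPM in KO at 2D, likewise above WT before it lay below at 36W. Dtx3l had 56.3, 43.6 and 39.2 CPM in WT and 33, 29.2 and 34 CPM in KO at 36W, and Parp9 had 39.4, 37.3 and 46.7 CPM against 35.3, 31.1 and 30.4 CPM. Both again lay lower in every KO library. Dhx58, at 15.5, 13.4 and 20.4 CPM in WT and 13.6, 12.1 and 10.6 CPM in KO, and Ube2l6, at 91.3, 90.6 and 94.7 CPM in WT and 86, 81.2 and 112 CPM in KO, overlapped at 36W. Dtx3l alone kept the call whichever library was left out, and with scaling by library size alone, which moved the median of all genes to 0.23, it was the 1 gene called. The count ranged from 1, without the first KO library of 2D or the second of 36W, to 11, without the third WT library of 2D, where 5% of all genes were called, 3.57% in the lower and 1.43% in the higher direction.

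Between 4W and 36W the KO effect was called different in 0 of the 39, with 0.565% of all genes called, and 9 had an unadjusted p under 0.05, which is 23.1% against 16% of all genes. The median difference was 0.41 against -0.04 over all genes. DESeq2 called 1, Ifi35, with 546 of 23422 genes with a count called. A fold called at 4W and not at 36W is thus not shown to differ between these times.

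After 4W fewer of the genes changed. In WT 5 of the 39 fell from 4W to 36W and 0 rose, against 21% of all genes called, 9.13% lower: Parp9 by 0.63 (adjusted p = 0.00243), Stat2 by 0.55 (adjusted p = 0.00332), Bst2 by 0.66, Dtx3l by 0.48 and Irgm1 by 0.53. In KO 8 rose and 3 fell, against 14.5% and 15.3% of all genes (29.8% in all). Tap1 rose by 1.10 (adjusted p = 0.000662), Isg15 by 1.87 (adjusted p = 0.00203), Oas1a by 1.94 (adjusted p = 0.00267) and Ifi35 by 0.59 (adjusted p = 0.0199). The 3 that fell in KO were Dtx3l by 0.74, Parp9 by 0.60 and Trim25 by 0.64. Ifi35 lost this call without the second or the third KO library of 36W or the first of 4W. Counted over both directions, the shares called after 4W are near or below those of all genes. By direction, the share falling in WT and the share rising in KO are above those of all genes, which was not tested. Parp9 and Dtx3l, whose products act as a pair, fell in both genotypes, although Dtx3l lost its call in WT without any 1 of 4 libraries, the second and the third of each time. In WT Stat2 and Parp9 kept the call throughout, and Bst2 lost it without 4 and Irgm1 without 5 of the 6.

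**Figure D5:**
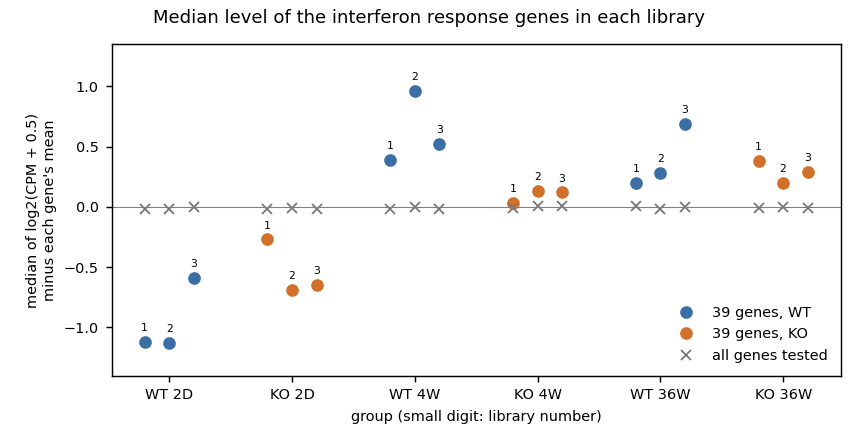
Median over the 39 genes of log2(CPM + 0.5) minus each gene's mean, for each library (circles, WT blue and KO orange, digit: library number), with the same median over all genes tested (crosses). WT libraries rise from -1.13 to -0.59 at 2D to 0.39 to 0.96 at 4W, KO libraries from -0.69 to -0.27 to 0.03 to 0.13, and the crosses stay near 0.

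The genes also moved together between libraries of 1 group. The second WT library of 4W was the highest of its group for 32 of the 39 genes, against 31% of all genes, and the third WT library of 36W for 32 of the 39, against 30.1%. Their medians on the scale of the library plot were 0.96, against 0.39 and 0.52 in the other WT libraries of 4W, and 0.69, against 0.20 and 0.28 in those of 36W. The Kupffer cell and macrophage sum was 507 CPM in the third WT library of 36W, against 150 and 179 CPM in its group, and 495 CPM in the second WT library of 4W, against 427 and 472 CPM. In the third WT library of 2D that sum was the lowest of its group, 362 CPM against 598 and 672 CPM. The median of that library, -0.59, was the highest of its group. In the second KO library of 4W the sum was 841 CPM, against 284 and 292 CPM. Its median was 0.13, against 0.03 and 0.12. Neutrophil markers summed to 17.5 CPM in the third WT library of 36W, against 1.36 and 3.26 CPM in its group. At 2D the first KO library was highest of its group for 26 of the 39, against 33.5% of all genes. Its Kupffer cell and macrophage sum was 591 CPM, against 408 and 488 CPM in its group. The part of cell content in these shifts was not tested.

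The rest of the pathway was read from lists with 117 genes found in the table. Interferon genes themselves were at or near 0: of 20 searched, 17 had no count in any library, Ifnab had 2 counts in 1 library, and Ifnk and Ifng had 26 and 39 counts over all 18, with at most 12 in one. A gene at 0 could still be present at up to 0.124 to 0.196 CPM, the floor of 3 counts. Of 6 receptor genes 5 passed the filter at 4W, and Ifnlr1, the specific chain of the type III receptor, did not, at 0.0651 to 0.409 CPM (WT) and 0.271 to 0.918 CPM (KO). Of the 5 tested, 2 rose in KO and 0 fell, against 1.95% of all genes called higher, both chains of the interferon gamma receptor: Ifngr1 from 25.2, 27.5 and 25 CPM to 37.6, 43.2 and 34.7 CPM (0.56, adjusted p = 0.0222), and Ifngr2 from 19.8, 17.5 and 20.1 CPM to 29.7, 29.2 and 30.2 CPM (0.63, adjusted p = 0.0114). With scaling by library size alone 1 receptor was called.

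Of 8 JAK and IRF genes outside the 39, 1 was called at 4W, against 1.95% of all genes called higher and 4.13% lower. It was Jak2, a kinase of the gamma receptor, which rose from 21.5, 20 and 18.2 CPM to 31.2, 31.3 and 24.7 CPM (0.54, adjusted p = 0.0438). Of 11 sensing adaptors and kinases, 1 fell, against the same shares of all genes. It was Ikbke, an IRF-activating kinase, from 32.4, 42.9 and 39 CPM to 23.5, 28.1 and 20.4 CPM (-0.67, adjusted p = 0.032). Of 6 feedback inhibitors none was called, and Ptpn2, a phosphatase of JAK and STAT proteins, had the smallest p (0.31, adjusted p = 0.248).

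Among 38 further interferon-stimulated genes tested at 4W, 3 fell and 0 rose, which is 7.89% against 4.13% of all genes called lower, with a median of -0.40. These were Ifi27 by 0.91 (adjusted p = 0.00706), Ifi27l2b by 0.89 (adjusted p = 0.0125) and Znfx1, an RNA helicase, by 0.58 (adjusted p = 0.0248). Among 26 genes more closely tied to interferon gamma, 1 fell, the guanylate-binding protein gene Gbp3, by 0.93 (adjusted p = 0.0336), which is 3.85% of the list, and the median was 0.07. The share of this second list lies near that of all genes. The difference between these lists was not tested. At 2D and at 36W edgeR called 0 genes of the lists, with an unadjusted p under 0.05 for 9 of 37 and 3 of 39 further genes and for 10 of 25 and 4 of 26 gamma-linked genes. These are 24.3% and 7.69% of the further genes and 40% and 15.4% of the gamma-linked genes, against 16.1% of all genes at 2D and 12% at 36W. The smallest p of the further genes was that of Helz2, a helicase, at 2D (0.58, adjusted p = 0.0729), and among the gamma-linked genes that of the guanylate-binding protein gene Gbp6 at 2D (1.56, adjusted p = 0.11) and of Nlrc5, the activator of MHC class I genes, at 36W (0.87, adjusted p = 0.139). Without the third WT library of 2D, 6 of 37 further genes and 10 of 25 gamma-linked genes were called higher at 2D, and 1 further gene lower, with 6.68% of all genes called higher and 6.42% lower.

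The ISRE letters were found in called and uncalled genes alike. Of the 12 genes called at 4W that had a promoter, 6 held the core, among them Isg15, Bst2 and Oas1a shown above, and 4 held it more than once. Of the 18 uncalled genes with a promoter 7 held it, among them Ifit3, and 3 more than once. These are counts over a small set and were not tested.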

How the data were processed

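The table held read counts per gene and library, deposited by the authors without normalization. STAR 2.5, HTSeq, DESeq2 and mm10 are named, without their roles, per the submitters' processing notes, and the strand setting is not given in the sources used here. The 39 members and all other lists were chosen with earlier results of these data known. Counts were tested with edgeR 4.0.16 (TMM scaling, filterByExpr, quasi-likelihood test, Benjamini-Hochberg adjustment over all genes tested, limma 3.58.1, R 4.3.3), with 6 libraries of a time for KO against WT and all 18 for differences between times. The fitting steps were tested on simulated data for part of the comparisons. DESeq2 1.42.0, other scalings and filters, a replicate block and leaving out each library were alternatives. Every library is given for Irf7, Stat2, Irf9, Isg15 and Ifit1 and for up to 12 called members per comparison of genotypes or of their difference, and for time comparisons the 4 called members with the smallest p in each direction were named. For each pathway list up to 4 called genes, or the smallest p, were named, and values of every library for Zbp1, Usp18, Trim25 and the named pathway genes were added after they were seen. A gene of one pathway list is not reported here. Promoters came from a RefSeq table. Depth was 15.3 to 24.2 M counts per library, and floors cover counting error only. No per-sample column was left unused. Python 3.11.15, pandas 2.3.3 and matplotlib 3.10.9 made the tables and figures.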

Additional observations from a re-analysis of the deposited data

Results flagged for a closer look

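The KO effect on 14 gene and time combinations differed between times by edgeR's test of the difference itself. Between 2D and 4W it was higher at 2D by 1.23 on the log2 scale for Stat2, 1.89 for Dhx58, 1.00 for Dtx3l, 1.26 for Irgm1, 3.04 for Oas3, 0.83 for Parp9 and 1.01 for Irf9. Between 2D and 36W the difference, 36W minus 2D, was -1.26 for Dtx3l, -0.95 for Parp14, -0.78 for Stat2, -1.41 for Dhx58, -0.97 for Trim25, -0.80 for Parp9 and -0.76 for Ube2l6. Both sets use the same 2D libraries, so they are not separate observations.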

How the results depend on the processing

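No called fold changed its direction under any alternative tried. At 2D the count of 0 became 2 without the low-count filter, 3 in a fit of all 18 libraries and 5 with DESeq2, and ranged from 0 to 18 with 1 library left out. At 4W the 15 became 20 with DESeq2 or without the low-count filter, both of which added Ifit1, Igtp, Oas3 and Mx2. It became 5 in the fit of all 18 libraries and 6 to 17 with 1 library left out. At 36W the 0 became 1 with DESeq2 or all 18 libraries and stayed 0 to 0 with 1 left out. The differences 2D minus 4W numbered 7, 4 with scaling by library size alone, 17 with DESeq2 and 2 to 17 with 1 left out. For 36W minus 4W the 0 became 1 with DESeq2 and 0 to 1 with 1 left out, and for 36W minus 2D the 7 became 1 with library size alone and 1 to 11. Over time, leaving 1 out gave 33 to 36 and 2 to 6 in WT and 8 to 15 and 7 to 9 in KO, and the 5 of WT after 4W became 8 with library size alone or DESeq2. A replicate block gave 0, 15 and 0 for KO against WT at 2D, 4W and 36W, 8, 0 and 7 for the differences, and 35, 5, 11 and 10 over time. Same-numbered libraries correlated at 0.117, -0.00576 and 0.284 at 2D, 0.16, 0.0939 and 0.0452 at 4W and 0.177, -0.0942 and 0.0775 at 36W, so the numbers are not taken as pairs.

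Counts over all genes moved as well. At 2D the 23 became 84 without the filter, 707 with DESeq2, 101 with all 18 libraries, 13 with the block and 1 to 1853 with 1 left out. At 4W the 814 became 1150 without the filter, 1222 with DESeq2, 439 with all 18 libraries and 360 to 823. At 36W the 5 became 47 without the filter, 293 with DESeq2, 401 with all 18 libraries, 0 with the block and 0 to 36. For 2D minus 4W the 199 became 125 with library size alone, 608 with DESeq2 and 82 to 531. For 36W minus 4W the 84 became 546 with DESeq2, 142 with the block and 9 to 351. For 36W minus 2D the 453 became 237, 1098 and 104 to 757, and for 4W against 2D in KO the 3605 became 2178 to 2953. Scaling by library size alone moved the share called higher from 26.1% to 6.9% at 2D, from 75.4% to 63.2%, from 50% to 82.9% and from 20.1% to 69.6% for the 3 differences, and over time from 50.7% to 24.1% and 56.6% to 42.2% in WT and from 55.6% to 28.8% in KO after 2D. The cause was not tested. With few counts for Oas3 and Ifi44 at 2D, depth limits their folds.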

Other observations

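The interferon receptor genes changed over time in WT liver. From 2D to 4W, 4 of 6 fell and 0 rose, against 18.6% of all genes called lower: Ifnlr1, the specific chain of the type III receptor, by 3.76 on the log2 scale (edgeR, adjusted p = 0.00017), Ifngr1 by 0.72, Il10rb, a chain shared with interleukin-10 receptors, by 0.62 and Ifngr2 by 0.44. From 4W to 36W all 6 rose, against 11.9% of all genes called higher, from 0.34 for the type I chain Ifnar1 to 3.33 for Ifnlr1. Both folds of Ifnlr1 rest on 4, 8 and 1 counts in the WT libraries of 4W, so their size is uncertain. In KO 1 rose and 1 fell to 4W, against 13.5% and 10.8% of all genes, and 3 rose afterwards, against 14.5%. With scaling by library size alone 4 fell to 4W and 4 rose to 36W in WT, and in KO 0 rose and 2 fell to 4W and 3 rose to 36W. For the difference of the KO effect edgeR called 0 of the 6 receptors between 2D and 4W and between 2D and 36W, with an unadjusted p under 0.05 for 3 and 2 of them, while DESeq2 called 0 and 2. Of 23422 genes with a count DESeq2 called 608 and 1098 in these comparisons.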
